A study of Mus musculus with 38 samples.

Results

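The genes described here are 6 genes typical of dentate granule cells, Prox1, Dsp, C1ql2, Calb1, Tdo2 and Pdyn. They were taken as a list of names, matched by Ensembl ID to the mouse symbol, and read in the hippocampal count data of all 38 mice. They are 6 of the 48709 genes counted in each mouse. All 6 passed the filter on low counts in each comparison between groups.

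Granule cells are the main excitatory neurons of the dentate gyrus, the entry station of the hippocampus for input from the entorhinal cortex. They are born throughout life in rodents and send mossy fibres to the mossy cells of the hilus and to the pyramidal cells of CA3. Prox1 is the homeobox transcription factor that sets and keeps their identity. Dsp encodes desmoplakin, a desmosomal plaque protein, and C1ql2 a secreted C1q-like protein that acts at mossy fibre synapses. Calb1 encodes calbindin, a calcium buffer of mature granule cells that is also made in CA1 pyramidal cells and interneurons. Tdo2 encodes tryptophan 2,3-dioxygenase, which opens the kynurenine pathway. Pdyn encodes prodynorphin, the precursor of the dynorphin opioid peptides that mossy fibres release and that act mainly on the kappa opioid receptor, encoded by Oprk1.

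RNA came from the hippocampus of mice on a C57BL/6 background that were WT or carried the APPPS1ΔE9 transgenes, a mutant amyloid precursor protein with a presenilin 1 that lacks exon 9, a model of amyloid pathology. They received placebo chow or chow with anle138b, a diphenylpyrazole small molecule. The pre-plaque group was analysed at 6 months of age and held 4 mice for each genotype on each chow. The post-plaque group was analysed at 10 months and held 5 WT mice on either chow, 5 APPPS1ΔE9 mice on placebo and 7 on anle138b. The group names refer to the start of the chow, before or after plaque onset. The paper counted plaques in APPPS1ΔE9 mice of both groups. For the 4 WT mice on placebo at 6 months the labels contradict each other on genotype, and these mice were used as WT, as their titles say. The transgene raises App reads, and App was between 3226 and 4315 CPM (a gene's counts scaled to a common library total) in the 20 APPPS1ΔE9 mice and between 1505 and 1808 CPM in the 18 WT mice, the 4 in question included.

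Total counts per mouse lay between 15847985 and 31895808, so Prox1 had at least 1273 reads in each mouse and Tdo2, the scarcest of the 6, between 18 and 449. The methods give all mice as male, yet the sum of Uty, Kdm5d, Eif2s3y and Ddx3y, which lie on the Y chromosome, was at most 1.89 CPM in 12 mice and between 169 and 405 CPM in the other 26. At 6 months, 5 of the 8 WT mice and none of the 8 APPPS1ΔE9 mice lacked Y-linked counts. At 10 months 3 WT mice on each chow and 1 APPPS1ΔE9 mouse, on anle138b, lacked them. Ages were treated and sequenced as separate cohorts, so age and cohort cannot be told apart. Lanes followed genotype for most mice, so genotype and lane largely cannot be told apart. All APPPS1ΔE9 mice on placebo were on lane 5, and those on anle138b on lane 6 but for 1 of 10 months. Of the WT mice of 10 months, 4 on placebo were on lane 3 and all on anle138b on lane 4. Chow and lane thus cannot be told apart in APPPS1ΔE9 mice of 6 months, and largely not in either genotype at 10 months. The choroid plexus genes, with Ttr first among them, summed to between 32.7 and 7944 CPM over the mice, and the 6 hypothalamic and pituitary genes to at most 8.19 CPM in the 6-month groups other than WT on anle138b, where they reached 310.2 CPM, and to at most 446.1 CPM at 10 months, in a WT mouse on placebo.

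In GRCm38, the build of mm10, Prox1 (ENSMUSG00000010175) lies on the minus strand of chromosome 1 from 190118035 to 190170714, and C1ql2 (ENSMUSG00000036907) on the plus strand of the same chromosome from 120340582 to 120343174. Pdyn (ENSMUSG00000027400) lies on the minus strand of chromosome 2 from 129686565 to 129699844, and Tdo2 (ENSMUSG00000028011) on the minus strand of chromosome 3 from 81957090 to 81976202. Calb1 (ENSMUSG00000028222) lies on the plus strand of chromosome 4 from 15881264 to 15908064, and Dsp (ENSMUSG00000054889) on the plus strand of chromosome 13 from 38151294 to 38198577. Antisense genes share 133 exon bases with Prox1 and 499 with Dsp, and without a stated strand setting the reads over those bases cannot be assigned to either gene.

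The 250 bases before a RefSeq start (GRCm38.p6) are given for the regulator Prox1, for Pdyn, the gene lower in APPPS1ΔE9 mice at 6 months, and for Tdo2, which varied most at 10 months beside Dsp. Prox1 and Pdyn each have 2 starts in RefSeq, and the window of the first is shown. Capitals mark matches to the motifs searched, an E-box CAGATG and a TATA box TATAAA, on either strand.
Prox1, chr1:190170828-190171077, minus strand: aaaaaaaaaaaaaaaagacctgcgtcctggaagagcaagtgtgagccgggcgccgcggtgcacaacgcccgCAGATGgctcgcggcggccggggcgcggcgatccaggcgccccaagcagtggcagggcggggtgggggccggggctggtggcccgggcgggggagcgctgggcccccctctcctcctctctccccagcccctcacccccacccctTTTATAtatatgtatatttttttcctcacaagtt
Pdyn, chr2:129699939-129700188, minus strand: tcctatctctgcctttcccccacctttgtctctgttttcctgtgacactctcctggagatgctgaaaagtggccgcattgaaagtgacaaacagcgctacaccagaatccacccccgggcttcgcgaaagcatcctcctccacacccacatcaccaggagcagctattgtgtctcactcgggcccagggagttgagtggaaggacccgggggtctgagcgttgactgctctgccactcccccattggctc
Tdo2, chr3:81975729-81975978, minus strand: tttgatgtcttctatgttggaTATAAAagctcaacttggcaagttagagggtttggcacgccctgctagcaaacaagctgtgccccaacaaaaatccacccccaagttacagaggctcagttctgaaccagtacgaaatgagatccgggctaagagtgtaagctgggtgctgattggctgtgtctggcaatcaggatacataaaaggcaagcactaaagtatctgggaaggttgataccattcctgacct

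The Prox1 window held the E-box 179 bases and the TATA box, on the other strand, 34 bases before the start. The Tdo2 window lies within the gene span given above and overlaps an annotated exon of Tdo2. It held a TATA box 229 bases before the RefSeq start. The window of Pdyn held neither of these letters, nor the E-box CAGCTG, the cyclic AMP response element TGACGTCA or the AP-1 element TGANTCA. Among 32851 promoter windows of the same length, CAGATG stood in 14.4%, CAGCTG in 13%, TATAAA in 12.4%, TGANTCA in 6.75% and TGACGTCA in 1.55%. The matches are a description of these windows only.

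Calb1 and C1ql2 were the most abundant of the 6 genes per length and Tdo2 the scarcest. Median levels over the 38 mice, in CPM per kilobase of exon, were 27.6 for Calb1, 27.5 for C1ql2, 13.8 for Prox1, 6.26 for Dsp, 5.14 for Pdyn and 2.63 for Tdo2. Calb1 and C1ql2 did not differ beyond their spread over mice, 13.5 to 37.2 and 13.1 to 55.3 CPM per kilobase, and neither did Dsp and Pdyn, at 0.411 to 16.6 and 1.69 to 9.47.

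**Figure D1:**
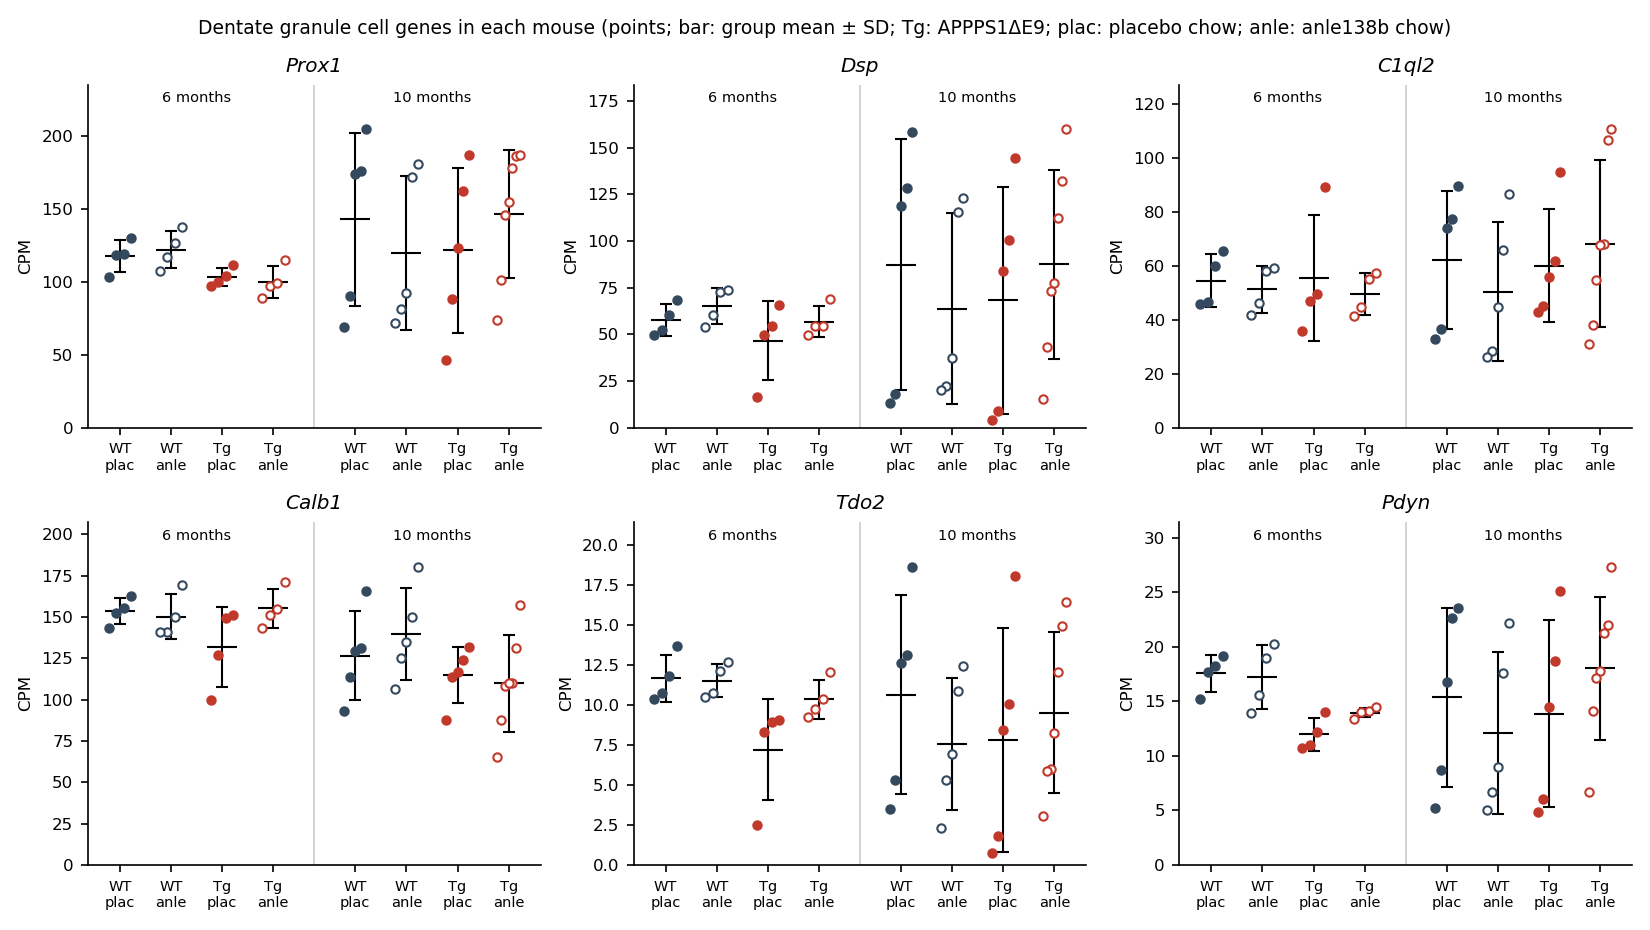
Level of each gene (CPM, linear axis from 0) in each of the 38 mice, by age, genotype and chow, with filled points for placebo and open points for anle138b. Black bars are the group mean ± SD. At 6 months Prox1 stayed between 88.8 and 137 CPM, while at 10 months it ranged from 46.7 to 204 CPM within overlapping groups.

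At 6 months the genes varied less between mice than at 10 months. Prox1 lay between 88.8 and 137 CPM over the 16 mice, Pdyn between 10.7 and 20.3 CPM, and C1ql2 between 35.96 and 89.1 CPM. Leaving aside mouse 75, a placebo-treated APPPS1ΔE9 mouse described below, Dsp lay between 49.5 and 73.9 CPM, Tdo2 between 8.32 and 13.7 CPM and Calb1 between 127 and 171 CPM.

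At 10 months the same genes spread widely within every group. Over the 22 mice Prox1 ranged from 46.7 to 204 CPM (median 150.1), Dsp from 3.97 to 160.0 CPM (median 80.8) and Tdo2 from 0.746 to 18.6 CPM (median 8.34). Pdyn ranged from 4.88 to 27.3 CPM (median 16.9), C1ql2 from 26.2 to 111 CPM (median 58.8) and Calb1 from 65.6 to 181 CPM (median 120.4). The highest mouse exceeded the lowest 40.3-fold for Dsp, 25.001-fold for Tdo2, 5.60-fold for Pdyn, 4.37-fold for Prox1, 4.23-fold for C1ql2 and 2.75-fold for Calb1.

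The within-group SD of log2 CPM measures this. It was 0.13 at 6 months and 0.65 at 10 months for Prox1, 0.17 and 0.86 for Pdyn, 0.48 and 1.63 for Dsp, and 0.47 and 1.20 for Tdo2. For C1ql2 it was 0.35 and 0.66, and for Calb1 0.17 and 0.32. All 6 genes had the larger SD at 10 months, as did 65.8% of the 18232 genes that passed the filter over all mice, whose median SD was 0.15 and 0.20. At 10 months 99.8% of these genes had a smaller SD than Dsp, 99.1% than Tdo2, 97.3% than Pdyn and 68.9% than Calb1.

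The spread at 10 months was ordered alike across granule cell genes. Lct, the lactase gene, is a listed granule cell gene outside the 6. It lay between 39.3 and 63.3 CPM in the 16 mice of 6 months, but at 10 months it was between 2.61 and 22.5 CPM in 9 mice and between 77.9 and 142 CPM in the other 13, with no mouse between. The same 9 mice were the 9 lowest of 22 for Prox1, for Dsp and for Pdyn. They made up 8 of the 9 lowest for C1ql2 and 7 of the 9 lowest for Tdo2. For Calb1 the order was turned, and they made up 7 of the 9 highest and none of the 9 lowest. These mice were found in each group, with 2 of 5 WT mice on placebo, 3 of 5 WT mice on anle138b, and 2 of 5 and 2 of 7 APPPS1ΔE9 mice on the respective chows.

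Prox1 was between 46.7 and 102 CPM in the 9 mice and between 123 and 204 CPM in the other 13, Dsp between 3.97 and 43.4 against 73.0 to 160.0 CPM, and Pdyn between 4.88 and 14.1 against 14.5 to 27.3 CPM. None of these 3 overlapped, and of all genes tested 9.72% did not overlap either. Calb2, the calretinin gene of mossy cells and immature granule neurons, went the opposite way, with 49.6 to 83.7 CPM in the 9 mice and 5.72 to 19.2 CPM in the 13. In the 16 mice of 6 months Calb2 was 46.2 to 79.4 CPM, near the 9. C1ql3, the granule cell relative of C1ql2, did not follow, at 41.9 to 57.5 against 41.7 to 61.5 CPM. Genes of other cells and regions moved with the gap as well. A gene was counted as low or high where at least 7 of the 9 mice were among its 9 lowest or highest. The share of all genes under this rule was not counted, so the counts describe these lists only. Of the 11 other granule cell genes 10 were low and 0 high, and 1 of the 10, Lct, was low by the choice of the mice. Of pyramidal cell genes 6 of 10 were low and 3 high, and of immature granule neuron genes 3 of 6 were low and 1, Dcx, high. All 3 mossy cell genes, 2 of 3 neocortical and 3 of 5 interneuron genes were high, while 3 of 6 thalamic and 2 of 4 glial genes, Mbp and Mog of oligodendrocytes, were low. The neocortical genes summed to 57.6 to 76.7 CPM in the 9 mice and 27.8 to 55.2 CPM in the 13, the mossy cell genes to 68.3 to 103.5 against 18.4 to 32.3 CPM, and the thalamic genes to 28.9 to 49.4 against 47.5 to 112.7 CPM. At 6 months these sums were 46.5 to 67.7 CPM for neocortical, 55.7 to 90.6 CPM for mossy cell and 52.2 to 162.0 CPM for thalamic genes. The part of these in the member values was not tested, and in whole tissue fewer granule cells and less RNA per cell cannot be told apart.

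**Figure D2:**
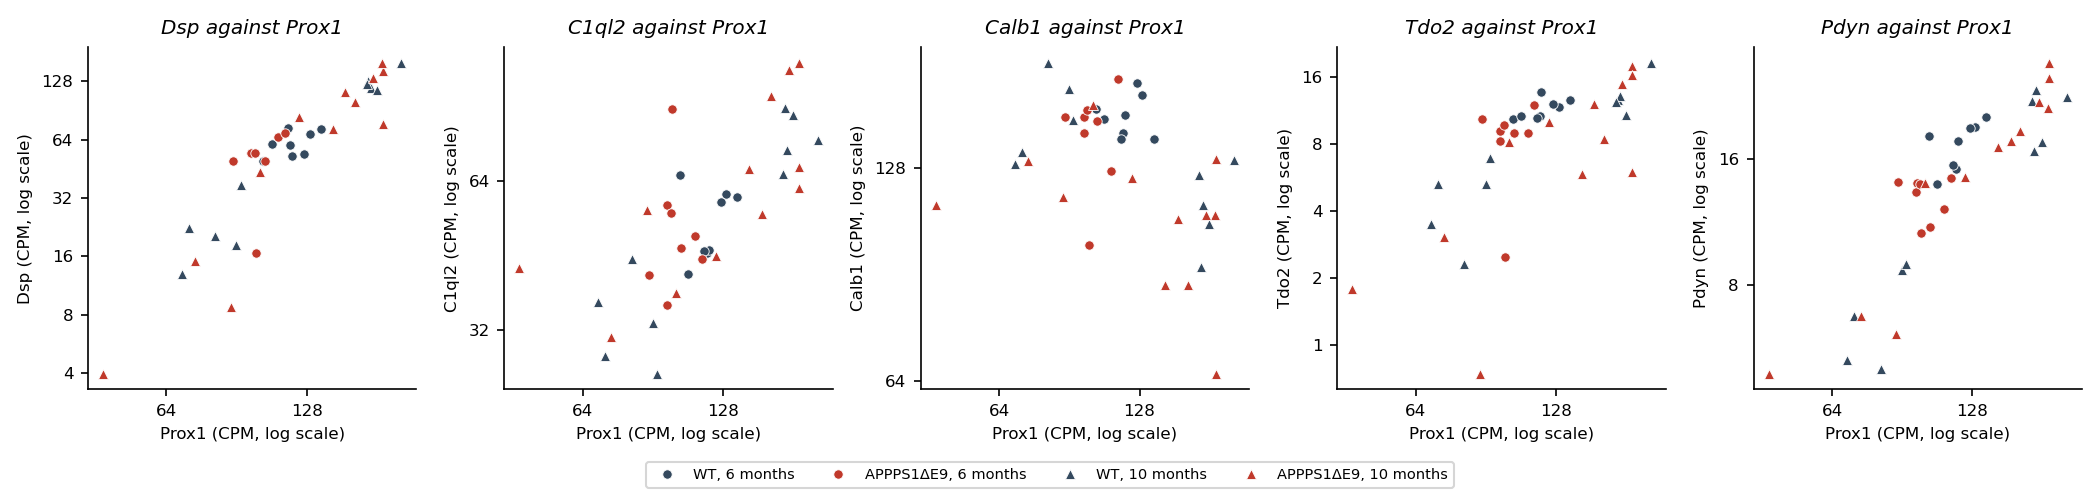
Each of the other 5 genes against Prox1, both in CPM on log axes, 1 point per mouse (circles 6 months, triangles 10 months, dark WT, red APPPS1ΔE9). At 10 months Dsp and Pdyn lie along a line with Prox1 over its range of 46.7 to 204 CPM, and Calb1 leans the other way.

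Because of this gap, correlations of log2 CPM are given within the 16 mice of 6 months and the 13 mice of 10 months above the gap, after removing group means, and within the 9 mice below it, with group means kept. They are descriptions over few mice that share library depth. Prox1 and Pdyn had a Pearson r of 0.42 (Spearman 0.39) in the 16 mice, 0.80 (0.76) in the 13 and 0.72 in the 9. Prox1 and Dsp had 0.39, 0.62 and 0.80, and 0.33, 0.40 and 0.24 without the 2 mice with the most extreme Prox1. Dsp and Tdo2 had 0.90, 0.95 and 0.78. Without mouse 75 their r at 6 months was 0.22, while that of Prox1 and Dsp was 0.67.

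Calb1 and Prox1 had an r of 0.17 in the 16 mice, 0.02 in the 13 and 0.62 in the 9 below the gap. Leaving out the 2 mice with the most extreme Prox1 brought these to 0.09, 0.10 and 0.35. Calb1 and Tdo2 had 0.79, 0.83 and 0.55, and the first fell to 0.32 without mouse 75. C1ql2 had a negative r with Calb1, at −0.59, −0.63 and −0.25, and with Tdo2, at −0.72, −0.24 and −0.80. Leaving out mouse 75 brought the 6-month values of these pairs to −0.06 and −0.07. Leaving out the 2 mice with the most extreme C1ql2 brought the r with Calb1 to 0.02, −0.26 and 0.18. It brought the r with Tdo2 to −0.26, 0.19 and −0.51. At 6 months these relations therefore rest on mouse 75, and in the 13 and the 9 mice the sign of a pair turned without the extreme mice.

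By the likeness of deviations from the group mean over all 38 mice, which the spread at 10 months dominates, the genes nearest to Prox1 were Sema5a, Pla2g2f, Dock10, Btbd9 and Rbfox1 (each r 0.97, and 0.64 to 0.80 in the 16 mice of 6 months). Nearest to Pdyn were Vwa3b, Sema5a, Lct, Limd2 and Slc26a10 (0.95 to 0.96), but within the 16 mice only Vwa3b stayed above 0.39 of these 5, at 0.76. Dsp was nearest to Npnt, Slc26a10, Adcy1, Ippk and Scn3b (0.96 to 0.97, and 0.48 to 0.92 at 6 months). C1ql2 was nearest to Rilpl1, Syn3, Iglon5, Edem2 and Htra4 (0.89 to 0.93, and 0.70 to 0.81). Tdo2 was nearest to Rbm24, Mkx, Ralgapa2, Carmil1 and Fam160a1 (0.92 to 0.93, and 0.65 to 0.88). The genes nearest to Calb1 were Chst9, Acvr2a, Kitl, Psg16 and Slc30a10 (0.77 to 0.84, and 0.50 to 0.81).

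The first comparison asked whether granule cell genes differ between APPPS1ΔE9 and WT mice in the pre-plaque group, at 6 months. Pdyn was lower in APPPS1ΔE9 mice. In placebo-treated WT mice it was 18.3, 19.2, 15.2 and 17.7 CPM, and in placebo-treated APPPS1ΔE9 mice 14.02, 12.2, 11.002 and 10.7 CPM. The groups did not overlap, and 3.3% of all genes were likewise lower without overlap. The log2 fold change was −0.55 ± 0.10 (SE, n = 4 and 4) and narrowly missed the threshold of edgeR's quasi-likelihood test (adjusted p = 0.128). In this comparison 0 of the 6 genes and 0.0715% of all genes passed, with 2 of the 6, Pdyn and Prox1, and 11.1% of all genes at an unadjusted p under 0.05. With DESeq2 the adjusted p of Pdyn was 0.0033, and over the alternatives with a whole-cohort fit or no filter 0.0796 and 0.00189.

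In anle138b-treated mice Pdyn was 20.3, 15.5, 13.97 and 18.99 CPM in WT and 13.4, 14.1, 13.98 and 14.4 CPM in APPPS1ΔE9 mice. These groups overlapped through mouse 41 of the WT group, with a log2 difference of −0.30 ± 0.11 that did not pass edgeR's test (adjusted p = 0.84). Of the 6 genes 0 passed against 0.047% of all genes, and 2, Pdyn and Prox1, had an unadjusted p under 0.05 against 5.64%. Averaged over both chows at 6 months, Pdyn fell by 0.43 ± 0.08 on the log2 scale in APPPS1ΔE9 mice (n = 8 and 8, edgeR adjusted p = 0.0353). Pdyn was the only 1 of the 6 genes to pass in this contrast, in which 0.218% of all genes passed, and with Prox1 and Tdo2 it made 3 of 6 at an unadjusted p under 0.05, against 10.7% of all genes. The contrast was planned as an alternative to that averaged over both ages, given below, in which Pdyn did not pass. At 6 months, leaving out a single mouse kept the log2 fold change of Pdyn between −0.47 and −0.38 and its adjusted p between 0.00747 and 0.111 (edgeR), the latter without mouse 31 of the placebo-treated WT group.

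Y-linked expression moved with this difference. Pdyn was between 17.7 and 20.3 CPM in the 5 WT mice without Y-linked counts, between 13.97 and 15.5 CPM in the 3 WT mice with them, and between 10.7 and 14.4 CPM in the 8 APPPS1ΔE9 mice, all with Y-linked counts. With the Y-linked level as a covariate the 6-month difference was −0.22 ± 0.07 (unadjusted p = 0.00773, adjusted p = 0.414, edgeR), and among the 11 mice with Y-linked counts alone it was −0.21 ± 0.09 (adjusted p = 0.784). With the mean log2 CPM of the 11 other listed granule cell genes as a covariate it was −0.32 ± 0.11 (adjusted p = 0.596). The striatal genes, from a tissue rich in Pdyn, summed to 13.1 to 22.2 CPM in placebo-treated WT and 15.7 to 16.6 CPM in placebo-treated APPPS1ΔE9 mice, with all 4 of 4 detected, and had a median log2 fold change of −0.30 in this comparison with 1 of 4 lower at an unadjusted p under 0.05. The medians of the thalamic and choroid plexus lists were −0.77 and −1.16, with 0 of 6 and 0 of 6 at an unadjusted p under 0.05. The part of these tissues in the Pdyn difference was not tested.

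**Figure D3:**
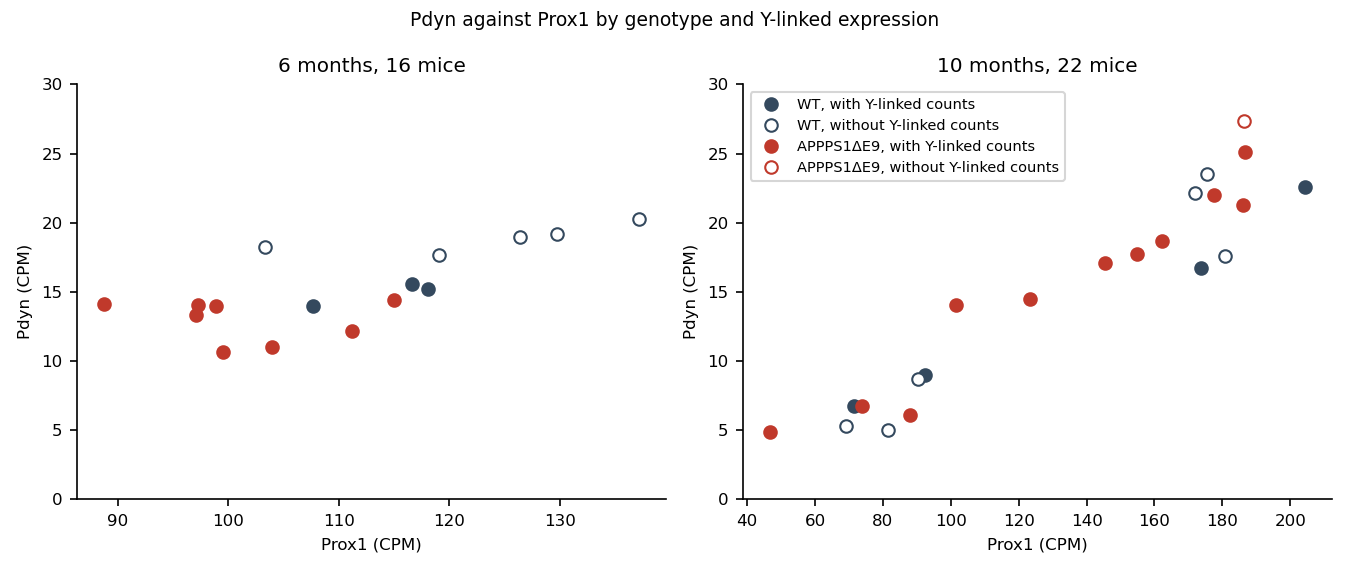
Pdyn against Prox1 in CPM, at 6 months (left) and 10 months (right), with dark points for WT and red points for APPPS1ΔE9 mice and open points for mice without Y-linked counts. At 6 months the open WT points lie highest, from 17.7 to 20.3 CPM of Pdyn, and at 10 months all groups share a single trend.

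Prox1 was lower in APPPS1ΔE9 mice of 6 months as well, without passing the threshold. It was 103, 130, 118 and 119 CPM in placebo-treated WT and 97.2, 111, 104 and 99.5 CPM in placebo-treated APPPS1ΔE9 mice, and the groups overlapped. The log2 fold change was −0.19 ± 0.07 with placebo, −0.29 ± 0.09 with anle138b and −0.24 ± 0.06 averaged (adjusted p = 0.184, edgeR). With the granule cell covariate the averaged difference was −0.05 ± 0.05. The 11 other granule cell genes all had a value below 0 in this averaged contrast, with a median log2 fold change of −0.10 against −0.01 for all genes, but 0 of the 11 passed and 4, Trpc6, Stxbp6, Plk5 and Npnt, had an unadjusted p under 0.05, where 0.218% and 10.7% of all genes did.

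Tdo2 was below WT in each placebo-treated APPPS1ΔE9 mouse, at 8.32, 9.03, 8.96 and 2.49 CPM against 10.4, 11.8, 10.8 and 13.7 CPM. The log2 fold change was −0.70 ± 0.37 (adjusted p = 0.52, edgeR). Anle138b-treated APPPS1ΔE9 mice had 9.22, 10.4, 9.76 and 12.03 CPM and lay above all 4 placebo-treated ones, as 2.62% of all genes did. Their log2 difference of 0.52 ± 0.36 did not pass either (adjusted p = 0.55), and chow and lane cannot be told apart here. Without mouse 75, the averaged genotype difference of Tdo2 at 6 months was −0.28 ± 0.07 (adjusted p = 0.234).

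Dsp, C1ql2 and Calb1 overlapped between genotypes at 6 months. Dsp averaged 57.7 ± 8.52 CPM (SD, n = 4) in placebo-treated WT and 46.7 ± 21.1 CPM in placebo-treated APPPS1ΔE9 mice, C1ql2 54.5 ± 9.87 and 55.3 ± 23.3 CPM, and Calb1 153 ± 7.95 and 132 ± 24.01 CPM. The wide SDs of the APPPS1ΔE9 group came with mouse 75. Averaged over chows, the log2 fold changes were −0.26 ± 0.21, −0.02 ± 0.17 and −0.09 ± 0.07.

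The question was put again in the post-plaque group, at 10 months. None of the 6 genes differed beyond the spread within groups. Prox1 was 90.4, 174, 176, 69.1 and 204 CPM in placebo-treated WT and 46.7, 87.9, 123, 162 and 187 CPM in placebo-treated APPPS1ΔE9 mice. Pdyn was 8.66, 16.7, 23.6, 5.27 and 22.6 CPM against 4.88, 6.09, 14.5, 18.7 and 25.1 CPM. The groups overlapped almost entirely, with log2 fold changes of −0.24 ± 0.40 for Prox1 and −0.16 ± 0.52 for Pdyn (both adjusted p = 1 when rounded, edgeR), and 0 of the 6 genes against 0.324% of all genes passed, with 0 of the 6 against 4.1% at an unadjusted p under 0.05.

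In anle138b-treated mice of 10 months Pdyn ranged from 5.03 to 22.2 CPM in WT (median 8.95) and from 6.72 to 27.3 CPM in APPPS1ΔE9 mice (median 17.7), a log2 fold change of 0.57 ± 0.39. Calb1 was 135, 149.9, 125, 181 and 107 CPM in WT and ranged from 65.6 to 157 CPM (median 109.9) in APPPS1ΔE9 mice, and the difference of −0.35 ± 0.18 on the log2 scale did not pass edgeR's test (adjusted p = 0.84). Here too 0 of the 6 genes passed, against 0.723% of all genes, and 0 against 5.78% had an unadjusted p under 0.05.

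With the granule cell covariate the errors at 10 months shrank for the genes that followed Prox1. The placebo comparison became −0.04 ± 0.08 for Prox1, −0.05 ± 0.15 for Dsp (from −0.36 ± 0.95) and 0.08 ± 0.11 for Pdyn, while Calb1 kept its error, at −0.16 ± 0.15 against −0.14 ± 0.15. In the anle138b comparison Pdyn became 0.23 ± 0.13 and Calb1 −0.20 ± 0.16. The covariate and the members measure overlapping cells, so a change shared by all granule cell genes would be removed with it.

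**Figure D4:**
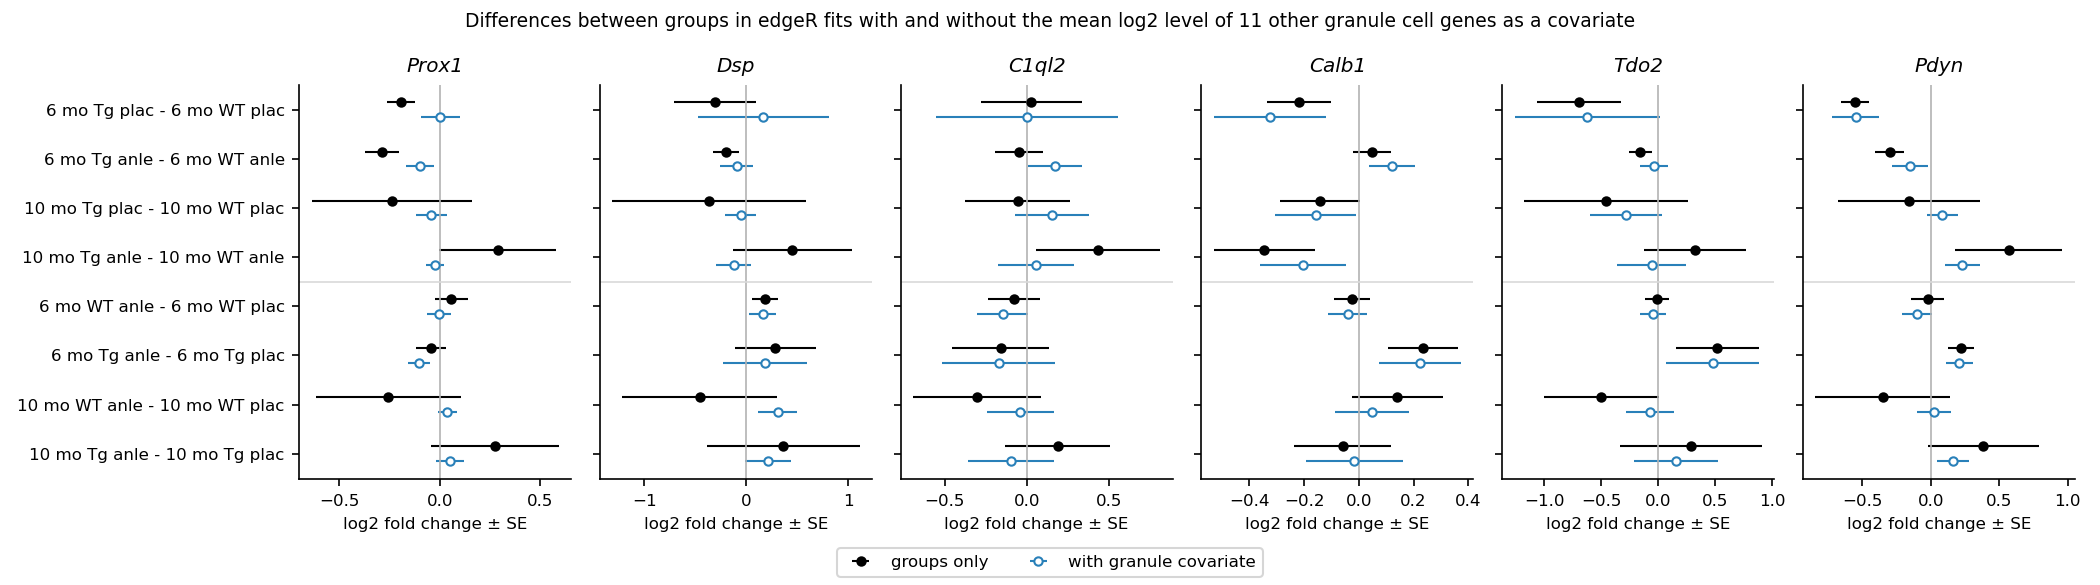
Log2 fold change ± SE of each gene in the 4 genotype comparisons (upper rows) and the 4 chow comparisons (lower rows), from edgeR fits with groups only (black) and with the mean log2 CPM of 11 other granule cell genes as a covariate (blue, open), with Tg for APPPS1ΔE9, plac for placebo, anle for anle138b and a scale of its own in each panel. Error bars at 10 months shorten with the covariate for Prox1, from 0.40 to 0.08 in the placebo comparison, and stay as long for Calb1.

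Averaged over both ages and chows, the genotype difference was −0.11 ± 0.16 for Prox1, −0.10 ± 0.36 for Dsp, 0.09 ± 0.18 for C1ql2, −0.16 ± 0.09 for Calb1, −0.24 ± 0.27 for Tdo2 and −0.11 ± 0.21 for Pdyn. None of the 6 passed edgeR's test, in which 1.46% of all genes did, and 0 of the 6 against 8.91% had an unadjusted p under 0.05. The genotype difference of Pdyn at 10 months exceeded that at 6 months by 0.64 ± 0.41 on the log2 scale (adjusted p = 0.79), and by 0.40 ± 0.12 with the granule cell covariate (unadjusted p = 0.00312, adjusted p = 0.23). None of the 6 genes passed this test of the difference between ages, while 0.176% of all genes did, and 0 of the 6 against 7.42% had an unadjusted p under 0.05.

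Chow was compared next, to see whether anle138b alters granule cell genes. In WT mice of 6 months the log2 fold changes lay between −0.08 ± 0.16 for C1ql2 and 0.18 ± 0.13 for Dsp. Prox1 was 137, 117, 107.6 and 126 CPM with anle138b, close to the placebo values above. In WT mice of 10 months they lay between −0.50 ± 0.51 for Tdo2 and 0.14 ± 0.17 for Calb1. In both comparisons 0 of the 6 and 0% of all genes passed, with 0 of the 6 and 1.85% and 1.25% of all genes at an unadjusted p under 0.05.

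In APPPS1ΔE9 mice of 6 months Pdyn was higher with anle138b, at 13.4 to 14.4 CPM against 10.7 to 14.02 CPM with placebo. Chow and lane cannot be told apart in these mice. The groups overlapped through mouse 17 at 14.02 CPM, and the difference of 0.22 ± 0.09 did not pass (unadjusted p = 0.034, adjusted p = 0.36, edgeR). The other 5 genes lay between −0.16 ± 0.30 for C1ql2 and 0.52 ± 0.36 for Tdo2, and 0.0529% of all genes passed, with 1 of the 6, Pdyn, against 13.1% at an unadjusted p under 0.05. At 10 months the differences lay between −0.06 ± 0.18 for Calb1 and 0.38 ± 0.41 for Pdyn, and 0 of the 6 and 0% of all genes passed, with 0 of the 6 against 1.48% at an unadjusted p under 0.05. These errors leave room for changes of either sign.

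The interaction of genotype and chow for Pdyn was 0.26 ± 0.15 at 6 months and 0.73 ± 0.67 at 10 months (adjusted p = 0.65 and 0.99, edgeR). For the other genes it lay between −0.09 ± 0.12 for Prox1 and 0.54 ± 0.37 for Tdo2 at 6 months. None of the 6 genes and 0% of all genes passed at either age, and 0 of the 6 had an unadjusted p under 0.05, against 7.99% of all genes at 6 and 2.3% at 10 months. The chow difference averaged over ages and genotypes lay between −0.09 ± 0.18 for C1ql2 and 0.09 ± 0.36 for Dsp, again with 0 of 6 and 0% of all genes past the threshold and 0 of 6 against 4.81% at an unadjusted p under 0.05.

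Between ages Calb1 fell by 0.27 ± 0.08 on the log2 scale from 6 to 10 months (adjusted p = 0.00745, edgeR), from a median of 151 CPM to 120.4 CPM. It was the only 1 of the 6 to pass, in a contrast in which 61.8% of all genes passed (60% at an unadjusted p under 0.05). A call was thus common here, and the 6 genes passed less often than all genes did. With the granule cell covariate 68.2% of all genes passed, and among them Pdyn (−0.35 ± 0.06), Tdo2 (−0.58 ± 0.17) and Dsp, whose sign turned (−0.34 ± 0.13 against 0.44 ± 0.36 without it). The 11 genes of the covariate themselves had a median of 0.22 between ages, with 4 called higher and 0 lower. A gene that follows them but rises less takes a lower value with the covariate. These values are therefore relative to the 11 genes and show no fall of the members by themselves.

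Other genes of granule cell signalling were compared in the same way. Of 12 activity-regulated genes, 1 passed in the genotype contrast averaged over ages and chows, Fos, an immediate early transcription factor, which rose by 1.07 ± 0.29 on the log2 scale in APPPS1ΔE9 mice (adjusted p = 0.0731, edgeR), where 1.46% of all genes passed. With Fos, 4 of the 12 had an unadjusted p under 0.05, all above 0, against 8.91% of all genes, and the median of the list was 0.26. Arc (0.47 ± 0.18), Fosb (0.32 ± 0.13) and Npas4 (0.46 ± 0.19) were the other 3, which did not pass. At 6 months alone, averaged over chows, the difference of Fos was 0.60 ± 0.44 (unadjusted p = 0.20, edgeR). More WT than APPPS1ΔE9 mice lacked Y-linked counts at both ages, and the part of this in the Fos difference was not tested. Of 7 genes of the opioid system 0 passed in either direction in the contrast averaged over ages and chows. Oprk1, the receptor for dynorphin, had −0.16 ± 0.27, and Penk, the enkephalin precursor, 0.26 ± 0.15. Of the 6 genes of immature granule neurons and the 3 of mossy cells none passed either.

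At the level of single mice, 3 APPPS1ΔE9 mice, singled out after their values were seen, had granule cell genes at an end of the range of their age, and in mice 75 and 93 at both ends. Mouse 75, placebo-treated and 6 months old, had the highest C1ql2 of its 16 age-mates (89.1 CPM, the others 35.96 to 65.5) and the lowest Calb1 (99.8, the others 127 to 171), Tdo2 (2.49, the others 8.32 to 13.7), Dsp (16.7, the others 49.5 to 73.9) and Pdyn (10.7, the others 11.002 to 20.3). Its Prox1, at 99.5 CPM, was within the range of the others, 88.8 to 137 CPM. Its Penk was the highest as well (52.2 CPM, the others 25.1 to 38.4), and so was Gfap, the astrocyte filament gene (914 CPM, the others 370.3 to 606).

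Mouse 93, anle138b-treated and 10 months old, had the highest C1ql2 of 22 mice (111 CPM), the lowest Calb1 (65.6, the others 87.4 to 181) and the highest Pdyn (27.3 CPM). It was also the only APPPS1ΔE9 mouse without Y-linked counts (0.451 CPM). Mouse 86, placebo-treated and 10 months old, had the lowest Tdo2 of the 22 (0.746, the others 1.80 to 18.6). Its C1ql2 (55.8) and Calb1 (117) were in the middle of the 22. It was among the 9 mice below the gap in Lct, in which C1ql2 ranged from 26.2 to 55.8 CPM and Calb1 from 113.7 to 181 CPM. Mice 86 and 93 had high Penk, Npy and Nptx2. For Bdnf they were 3rd and 1st of the 22 from the highest, and for Inhba 2nd and 3rd. Penk was 77.1 CPM in mouse 93 and 69.3 in mouse 86, where the median of the other mice was 31.1. Npy, the neuropeptide Y gene, was 63.2 and 61.5 CPM with a median of 29.2 in the others, and Nptx2, neuronal pentraxin 2, 51.2 and 56.7 with 28.3. Gfap was 1391 and 1344 CPM, the highest values of the 22. Npy in mouse 75 was 30.8 CPM, within the range of its age-mates. Arc was 92.7 CPM in mouse 93 and Fos 7.40 CPM, 8th and 6th of 22 from the highest. In mouse 86 they were 124 and 13.3 CPM, 3rd and 4th, and mouse 75 was 14th and 15th of 16 for them.

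**Figure D5:**
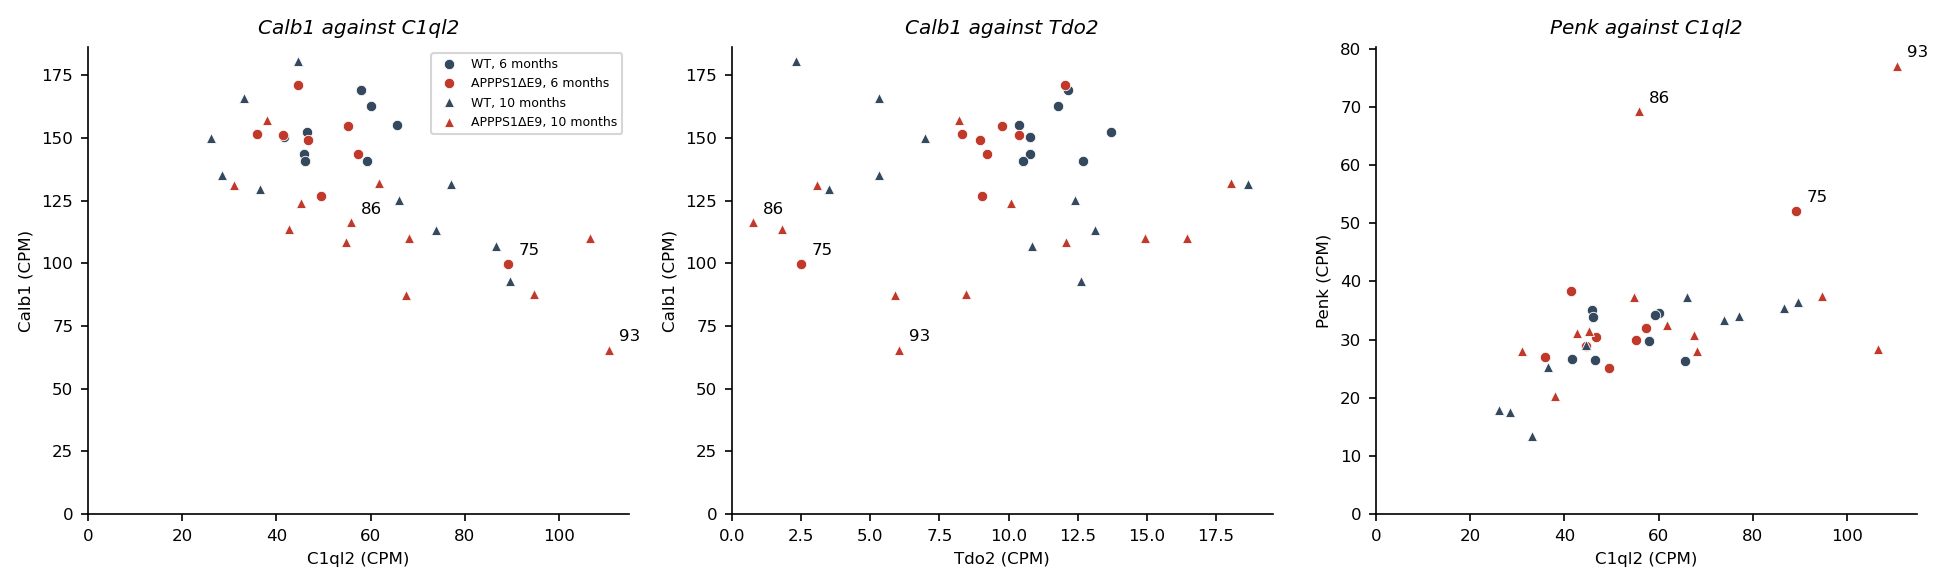
Calb1 against C1ql2, Calb1 against Tdo2 and Penk against C1ql2 in CPM, 1 point per mouse (circles 6 months, triangles 10 months, dark WT, red APPPS1ΔE9), with mice 75, 86 and 93 marked by number. Penk is highest at 6 months in mouse 75 (52.2 CPM) and at 10 months in mice 93 (77.1 CPM) and 86 (69.3 CPM).

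High C1ql2 with low Calb1 was not confined to APPPS1ΔE9 mice. The ratio of C1ql2 to Calb1 in CPM was 1.69 in mouse 93, then 1.08, 0.970 and 0.964 in an APPPS1ΔE9 mouse of each chow and a placebo-treated WT mouse of 10 months, and 0.893 in mouse 75. The WT mouse had 89.6 CPM of C1ql2 and 92.9 CPM of Calb1, with Penk at 36.5 and Npy at 30.7 CPM.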

How the data were processed

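RNA from the hippocampus of 38 mice was sequenced from TruSeq mRNA libraries. The authors aligned reads with STAR (mm10), assigned them to genes with HTSeq (intersection-nonempty) and deposited the raw counts of each mouse, without normalization. The annotation release and strand setting are not given in the sources used here. Groups came from the sample titles. No 2 mice of a group agreed within sampling noise (0 of 75 pairs). The members and the marker lists were chosen with earlier results of these data known.

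From the counts, genes passing filterByExpr (minimum count 10, minimum total 15) entered edgeR 4.0.16 (R 4.3.3) with TMM scaling, and the tests were its quasi-likelihood tests (glmQLFit with robust estimation, glmQLFTest). Each pair of groups was fitted alone, interactions within a cohort, and averaged contrasts over all 38 mice. The genotype contrast at 6 months averaged over chows was fitted on the 16 mice of that age alone. It was planned as an alternative to the genotype contrast averaged over ages and chows. Benjamini-Hochberg adjusted p-values under 0.1 passed. SEs were obtained as |log2 fold change| over the root of F. CPM used TMM library sizes, and log2 CPM a prior count of 2. Gene positions came from GENCODE M21 and promoter windows from RefSeq (GRCm38.p6), which held windows for all members but Calb1. Exon lengths are merged exons.

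Genes named are the members, the 5 genes most like each member, App, the summed Y-linked genes, and of each marker list those with the smallest p in the averaged genotype contrast or with values beside a member result. The alternatives were DESeq2 1.42.0, RLE size factors, no filter, a threshold of 0.05, Y-linked and granule cell covariates, the replicate number as a block, whole-cohort fits, single lanes, ages alone, and each mouse left out. The tests on the 6-month contrast other than its plain fit, and the sets of mice on either side of the gap in Lct, were added after seeing the data. The edgeR tests recovered most known changes in counts simulated independently for each gene in pairwise comparisons. Those counts hold no swings shared by granule cell genes, so they do not show how the tests behave for the members. For members past the threshold in no fit, a change of sign counted as a reversal only where the value exceeded its SE.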

Additional observations from a re-analysis of the deposited data

Results flagged for a closer look

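Among the 48 sets of values formed by the 6 genes and 8 groups, 1 held a mouse far from the rest of its group, where chance alone flags about 1 in 20. Tdo2 was 2.49 CPM in mouse 75 of the placebo-treated APPPS1ΔE9 mice of 6 months, and between 8.32 and 9.03 CPM in the other 3. The gap took up 0.937 of the range of the 4 values on the log2 scale. The 5 other genes of this mouse are given above.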

How the results depend on the processing

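The number of the 6 genes past the threshold was the same as in the main fit in all comparisons and alternatives other than those named here. For placebo-treated mice of 6 months it went from 0 to 1, Pdyn, with DESeq2, with the whole cohort in 1 fit and with no filter, and was 0 to 1 when single mice were left out, with Pdyn passing without mouse 17 (adjusted p = 0.0192) or mouse 37 (0.0651). For genotype averaged over ages it was 1 at 6 months alone. At 6 months it was 0 with the Y-linked covariate, the granule cell covariate or the mice with Y-linked counts only, 2 with DESeq2 (Prox1 too), and 0 to 2 when single mice were left out. Mouse 15 of the anle138b-treated APPPS1ΔE9 mice was the other mouse without which Pdyn missed the threshold (0.105). Between ages it was 4 with the granule cell covariate and 1 to 2 when single mice were left out. Turned in sign with the granule cell covariate were Prox1 in placebo-treated mice of 6 months (0.0040) and Dsp between ages (−0.34). The cause was not tested. Of 2388 single-gene values under alternatives, 106 had another sign than the main value. The median r over the 15 pairs of the 6 genes was 0.67 over all 38 mice, 0.62 to 0.72 without single mice, and 0.32 at 6 months alone.

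Counts of all genes past the threshold moved more. Between the lowest and highest alternative they were 4 to 205 (main 12) for genotype with placebo at 6 months, 6 to 44 (8) with anle138b, 14 to 150 (55) and 20 to 272 (124) at 10 months, 3 to 317 (9) for chow in APPPS1ΔE9 mice of 6 months, 38 to 554 (266) for averaged genotype and 5 to 173 (38) for it at 6 months. The running numbers in the titles did not pair the mice, since no comparison had all same-numbered pairs correlated above 0.1 (mean r −0.25 to 0.35), and the replicate block changed no call of the 6 genes, with 0 past the threshold in each pairwise comparison and 1 at 6 months averaged over chows. With 4 to 7 mice a group and SDs up to 1.63 on the log2 scale at 10 months, small changes of the members were not detectable, since values of over 4 SE, such as the averaged Prox1 difference at 6 months, still missed the threshold.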

Other observations

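Of the 6 genes of newly born granule neurons, 3 passed between ages, all lower at 10 months, and Dcx, Sox11 and Sema3c did not pass. Eomes, a transcription factor of intermediate progenitors, fell by 2.001 ± 0.38 on the log2 scale from 6 to 10 months, Igfbpl1 fell by 1.55 ± 0.32 and Neurod1 fell by 0.10 ± 0.05, all past the threshold of edgeR's test, as were 61.8% of all genes. These genes were chosen after their values were seen. Eomes lay at or under 2.8 CPM in each mouse. Age and cohort cannot be told apart. Of the mature granule cell genes outside the 6, 4 of 11 passed and rose, Glis3 by 0.48 ± 0.10, Rfx3 by 0.35 ± 0.09, Fam163b by 0.47 ± 0.22 and Plk5 by 0.61 ± 0.30. Neither the 3 of 6 nor the 4 of 11 exceeds the 61.8% of all genes that passed.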
